A study of Mus musculus with 6 samples.

Results

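The sarcomere and contractile muscle genes of the mouse palate were followed as a list of 49 genes, matched by symbol among the 56691 gene identifiers that were counted. The list holds 13 thick filament genes, 12 thin filament genes, 4 genes of titin and the M-band, 12 genes of the Z-disc and of filament anchorage, and 8 genes of sarcomere assembly, turnover and stress. The palate was profiled by bulk RNA-seq at embryonic day (E) 14.0 in C57BL/6J mice, with 3 libraries of the anterior 1/3 of the palatal shelves and 3 libraries of the posterior 1/3. The labels name no engineered allele and no treatment, and stage and strain were shared by all 6 libraries, so that region is the only difference they give. The samples are described as biologically independent, and how many embryos went into each is not given in the sources used here.

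In striated muscle, myosin thick filaments and actin thin filaments slide past each other within the sarcomere, a unit bordered by Z-discs and spanned by titin. Troponin and tropomyosin on the thin filament make the sliding depend on calcium, and most parts exist as embryonic, slow, fast and cardiac-type isoforms encoded by separate genes. In the palate, skeletal muscle belongs to the soft palate at the posterior end, and developing fibres first use embryonic myosin and cardiac-type actin before adult isoforms take over.

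Of the 49 genes, 44 had at least 10 counts in at least 3 libraries and were tested, and 39 of them were called higher in the posterior palate at an adjusted p below 0.05. None reached it in the other direction. Over all 15673 genes tested, 4.87% were called higher in the posterior and 2.59% higher in the anterior palate. Adjusted p denotes edgeR's quasi-likelihood test with Benjamini-Hochberg adjustment over all genes tested, and log2 fold changes are posterior over anterior. Standard errors are the log2 fold change divided by the square root of that test's F statistic. They are approximate and can fall below counting error for genes with few anterior counts. The median log2 fold change of the genes tested on the list was 4.78, or 4.63 with genes of at most 3 counts in every anterior library set at that floor, against -0.004 over all genes tested. Of the 44, 13 had under 10 counts in every anterior library and so entered the test through their posterior counts alone, which means that they had to differ. Among the 18 list genes with at least 10 counts in every anterior library, 14 were called in that direction. Without the filter on low counts, 43 of the 49 were called toward the posterior palate, beside 5.01% of all genes (2.13% toward the anterior), and the median over the 49 was 4.47, against -0.018 over all genes. DESeq2 called 41 of the 44 toward the posterior palate and 0 toward the anterior, beside 8.56% and 4.07% of all genes.

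Levels are given as CPM, counts scaled to the TMM-normalized library size. The 49 genes added up to 291.9, 289.9 and 305.7 CPM in anterior replicates 1, 2 and 3, and to 1917, 1438 and 2474 CPM in posterior replicates 1, 2 and 3. All 3 posterior libraries lay above all 3 anterior libraries for the sum, and they did so for 42 of the 44 genes tested, an order that 14.7% of all genes tested showed. The 5 genes whose libraries overlapped between regions, untested ones included, were Myh2, Myl2, Myl3, Myom1 and Actn3. In whole tissue, fewer cells of a type and less RNA per cell cannot be told apart.

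**Figure D1:**
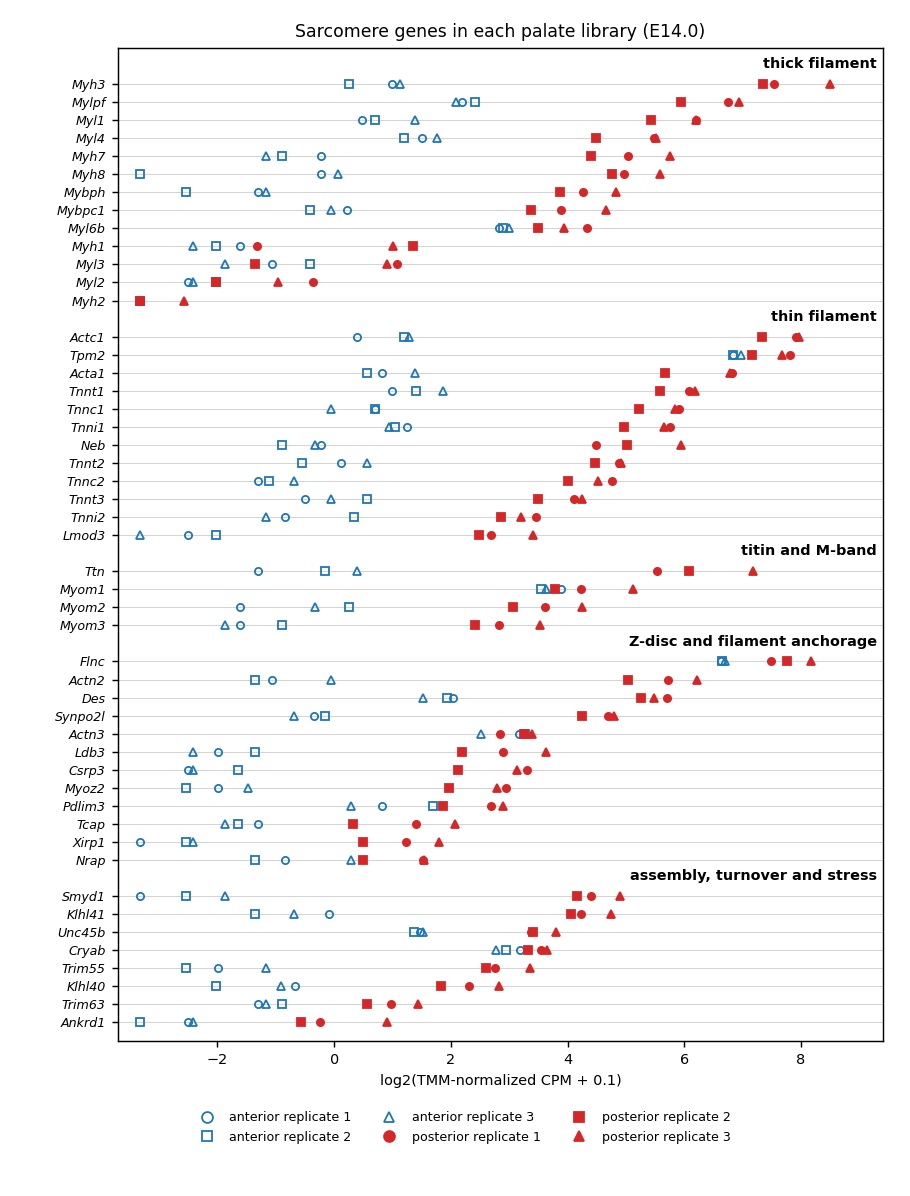
Level of each of the 49 genes in each of the 6 libraries, on the horizontal axis as log2 of TMM-normalized CPM plus 0.1, with genes on the vertical axis grouped by their place in the sarcomere. Open blue symbols are anterior and filled red symbols posterior replicates, and for 44 genes every red symbol lies to the right of every blue one.

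The libraries held between 11378736 and 15172733 reverse-stranded gene counts, and 3 counts, the limit that a count of 0 allows, corresponded to 0.198 to 0.264 CPM, which covers counting error only. Posterior replicates 2 and 3 stood apart from the other 4 libraries, with 6.12% and 5.94% of reads mapping to several places against 8.45% to 8.77%, and with 0.973% and 1.14% of counts on mitochondrial transcripts against 2.70% to 2.97%. Neuron markers (Tubb3, Stmn2 and Elavl3) added up to 200.3 CPM in posterior replicate 2, against 13.3 to 36.6 CPM in the other 5 libraries. A fit with a term for these 2 posterior libraries, which compares the single posterior replicate 1 with the anterior libraries and takes that library to vary like the rest, called 39 of the list higher in the posterior palate, beside 4.40% of all genes tested and 3.21% in the other direction.

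Promoters of the genes that the results below turn on are shown as the bases before the RefSeq start site on GRCm38.p6, since these genes moved together and their start regions can be read side by side. The CArG box is the element of serum response factor, the MEF2 site that of the MEF2 factors, CAGCTG is an E-box of the kind that MyoD and myogenin bind, and TATAAA is the TATA box. Capitals mark every match to these motifs on either strand. Positions are counted back from the start, whose preceding base is -1, and name the first base of the motif. The RefSeq start is also the gene start in GENCODE M21 for Myh3, Ttn and Klhl41. For Actc1, Acta1 and Mylpf it is not, with M21 gene starts at 114053548, 123894751 and 127208890. Motif positions of these genes depend on the start used. Cardiac alpha-actin Actc1 (chr2:114052888-114053125, minus strand, bases -250 to -13) holds a CArG box at -47. Skeletal alpha-actin Acta1 (chr8:123894776-123895025, minus strand) holds a CArG box at -73, CAGCTG at -221 and TATAAA at -7, and the fast regulatory light chain gene Mylpf (chr7:127211358-127211607, plus strand) holds CAGCTG at -51. Embryonic myosin Myh3 (chr11:67078050-67078299, plus strand) holds TATAAA at -29. Titin, Ttn (chr2:76982548-76982797, minus strand), holds a MEF2 site at -166, and Klhl41 (chr2:69669870-69670119, plus strand), whose protein stabilizes nebulin, holds a MEF2 site at -63 and CAGCTG at -127.
Actc1: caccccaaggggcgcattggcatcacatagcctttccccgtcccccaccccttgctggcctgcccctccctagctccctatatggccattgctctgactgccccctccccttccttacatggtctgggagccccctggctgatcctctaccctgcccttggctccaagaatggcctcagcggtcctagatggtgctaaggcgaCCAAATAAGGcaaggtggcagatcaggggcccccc
Acta1: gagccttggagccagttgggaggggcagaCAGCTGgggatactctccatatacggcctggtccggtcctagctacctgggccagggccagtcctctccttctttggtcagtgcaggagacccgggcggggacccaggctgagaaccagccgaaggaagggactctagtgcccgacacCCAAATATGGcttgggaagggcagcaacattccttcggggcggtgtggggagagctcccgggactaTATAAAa
Mylpf: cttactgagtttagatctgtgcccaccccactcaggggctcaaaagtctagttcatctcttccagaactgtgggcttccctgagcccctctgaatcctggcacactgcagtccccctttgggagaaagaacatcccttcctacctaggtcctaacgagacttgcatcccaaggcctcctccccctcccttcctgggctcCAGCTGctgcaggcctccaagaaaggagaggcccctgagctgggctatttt
Myh3: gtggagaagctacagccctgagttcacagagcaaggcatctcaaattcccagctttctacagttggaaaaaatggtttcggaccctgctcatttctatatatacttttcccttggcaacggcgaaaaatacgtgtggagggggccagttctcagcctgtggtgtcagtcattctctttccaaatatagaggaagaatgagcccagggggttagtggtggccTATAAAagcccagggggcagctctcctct
Ttn: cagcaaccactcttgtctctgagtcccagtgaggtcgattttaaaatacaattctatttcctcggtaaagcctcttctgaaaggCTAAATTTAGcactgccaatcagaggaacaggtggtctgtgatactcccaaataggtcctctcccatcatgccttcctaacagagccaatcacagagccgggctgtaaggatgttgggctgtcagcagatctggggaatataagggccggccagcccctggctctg
Klhl41: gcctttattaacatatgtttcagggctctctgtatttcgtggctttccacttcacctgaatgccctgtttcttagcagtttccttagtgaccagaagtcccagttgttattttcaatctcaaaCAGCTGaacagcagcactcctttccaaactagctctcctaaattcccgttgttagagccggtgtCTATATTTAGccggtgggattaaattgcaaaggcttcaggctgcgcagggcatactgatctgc

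RefSeq promoters were found for 39 of the 49 genes. In the 250 bases before the start, searched on both strands, CAGCTG occurred in 17 of the 39 (43.6%), against 14.7% of all 27025 genes with a promoter. The wider pattern CANNTG, which includes CAGCTG, occurred in 32 (82.1%) against 69.3%. MEF2 sites occurred in 4 (10.3%; Klhl41, Myoz2, Synpo2l and Ttn) against 0.592%, and CArG boxes in 5 (12.8%; Acta1, Actc1, Ldb3, Myl3 and Myom1) against 1.62%. CATTCC, the MCAT element, occurred in 12 (30.8%) against 14.4%, and TATAAA in 10 (25.6%) against 14.3%. These are letter matches in a fixed window and were not tested.

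The thick filament genes ranged from near-absent adult myosins to abundant embryonic ones. Of the 13 genes, 9 were tested and all 9 were called higher in the posterior palate, with log2 fold changes from 1.07 to 7.13. Of the 9, 1 had under 10 counts in every anterior library and so entered the test through its posterior counts alone. Class counts here and below stand beside 4.87% of all genes tested called in that direction. Summed over the class, levels were 20.9, 19.5 and 22.8 CPM in the anterior and 531, 376 and 775 CPM in the posterior libraries.

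Myh3, the embryonic myosin heavy chain, stood at 1.90, 1.09 and 2.08 CPM in the anterior and at 185, 162 and 359.9 CPM in the posterior replicates (log2 fold change 7.13, standard error 0.43, adjusted p = 0.000188). Every posterior library was far above every anterior one, and posterior replicate 3 was the highest. Myh8, the neonatal (perinatal) heavy chain, stood at 0.759, 0 and 0.952 CPM in the anterior and at 31.3, 27.1 and 47.9 CPM in the posterior libraries (5.99, standard error 0.57, adjusted p = 0.00114). Myh7, the slow heavy chain that the heart also uses, stood at 0.759, 0.436 and 0.346 CPM against 32.8, 20.95 and 53.8 CPM (6.09, standard error 0.48, adjusted p = 0.000529). DESeq2 gave Myh8 a standard error of 1.06. For all 3 heavy chains the regions did not overlap. Counted without strand, Myh7 had 713 reads over the 6 libraries, against 1533 on its own strand.

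Adult fast heavy chains were low. Myh1, the fast type IIx chain, had 3, 2 and 1 counts in the anterior and 4, 34 and 28 counts in the posterior libraries, so that posterior replicate 1 was close to the anterior level. Its posterior to anterior ratio of summed counts, scaled to library size, was 10.1 (95% exact interval 4.42 to 28.6, counting error only). Myh2, the fast type IIa chain, had 1 count in posterior replicate 3 and 0 in the other 5 libraries. Both were under the filter on low counts and were not tested. Without the filter Myh1 was called higher in the posterior palate (log2 fold change 3.25, adjusted p = 0.00722). Myh3, Myh2, Myh1 and Myh8 lie in this order in 1 gene cluster on chromosome 11 (67078300 to 67308634, GRCm38, GENCODE M21), with Myh4, another fast heavy chain gene, between Myh1 and Myh8. Heavy chain genes resemble each other closely, and reads that mapped to several places are outside the counts.

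Light chains of fast and embryonic muscle were high in the posterior palate. Mylpf, the fast regulatory light chain, stood at 4.48, 5.24 and 4.15 CPM in the anterior and at 107, 61.6 and 122 CPM in the posterior libraries (log2 fold change 4.38, standard error 0.29, adjusted p = 0.000239). Myl1, the fast essential light chain, stood at 1.29, 1.53 and 2.51 CPM against 73.4, 43.0 and 73.0 CPM (5.16, standard error 0.32, adjusted p = 0.000193). Myl4, the essential light chain of embryonic and atrial muscle, stood at 2.73, 2.18 and 3.29 CPM against 44.5, 22.3 and 45.7 CPM (3.78, standard error 0.33, adjusted p = 0.00076). For these genes the regions were far apart, and posterior replicate 2 was the lowest of the posterior libraries each time. Myl6b, an essential light chain that slow muscle and non-muscle cells both use, was different in size, with 6.98, 7.34 and 7.87 CPM against 20.1, 11.2 and 15.3 CPM (1.07, standard error 0.22, adjusted p = 0.029). The regions did not overlap for Myl6b, but its call was lost when any anterior replicate or posterior replicate 3 was left out (adjusted p from 0.0747 to 0.126) and with the replicate number as a block (0.052).

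Light chains of the ventricle and slow muscle stayed low. Myl2 had 1, 2 and 1 counts in the anterior and 9, 2 and 6 in the posterior libraries, a ratio of 3.92 (1.28 to 16.0). Myl3 had 5, 9 and 2 counts against 27, 4 and 26, a ratio of 3.28 (1.86 to 6.12). In both genes posterior replicate 2 fell within the anterior range, and neither was tested. The myosin-binding proteins brace the thick filament. Mybpc1, slow myosin-binding protein C, stood at 1.06, 0.654 and 0.865 CPM against 14.7, 10.3 and 25.2 CPM (4.27, standard error 0.41, adjusted p = 0.00118). Mybph, myosin-binding protein H, had 4, 1 and 4 counts in the anterior libraries and stood at 19.1, 14.6 and 28.3 CPM in the posterior libraries (6.41, standard error 0.45, adjusted p = 0.000331).

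All 12 thin filament genes were tested and called higher in the posterior palate, with log2 fold changes from 0.69 to 6.83. Of the 12, 2 had under 10 counts in every anterior library. Summed over the class, they stood at 126, 127 and 141 CPM in the anterior and at 872, 566 and 895 CPM in the posterior libraries. Actc1, the cardiac alpha-actin that embryonic skeletal muscle uses first, stood at 1.21, 2.18 and 2.34 CPM in the anterior and at 239.8, 162 and 248 CPM in the posterior replicates (6.83, standard error 0.28, adjusted p = 9.65e-05). Acta1, the skeletal alpha-actin, stood at 1.67, 1.38 and 2.51 CPM against 113, 50.5 and 110.1 CPM (5.63, standard error 0.40, adjusted p = 0.000372). In both actins posterior replicate 2 was the lowest posterior library and still far above the anterior ones. Alpha-actins of striated and smooth muscle are near-identical in coding sequence, so how their reads were divided is uncertain.

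Troponin T anchors the troponin complex to tropomyosin. Its slow isoform Tnnt1 stood at 1.90, 2.55 and 3.55 CPM in the anterior and at 67.4, 48.0 and 72.2 CPM in the posterior libraries (log2 fold change 4.56, standard error 0.26, adjusted p = 0.000166). The cardiac-type isoform Tnnt2 stood at 0.986, 0.582 and 1.38 CPM against 29.5, 22.2 and 30.1 CPM (4.80, standard error 0.28, adjusted p = 0.000166). The fast isoform Tnnt3 stood at 0.607, 1.38 and 0.865 CPM against 17.2, 11.2 and 18.9 CPM (4.03, standard error 0.34, adjusted p = 0.000658). The 3 log2 fold changes lay between 4.03 and 4.80, and none of the genes overlapped between regions.

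Troponin I, the inhibitory subunit, and troponin C, which binds calcium, each have a slow and a fast gene on the list. Tnni1, slow troponin I, stood at 2.28, 1.96 and 1.82 CPM against 53.9, 31.0 and 50.5 CPM (log2 fold change 4.47, standard error 0.26, adjusted p = 0.000166), and fast Tnni2 at 0.455, 1.16 and 0.346 CPM against 10.9, 7.15 and 9.05 CPM (3.74, standard error 0.41, adjusted p = 0.00212). Tnnc1, the troponin C of slow and cardiac muscle, stood at 1.52, 1.53 and 0.865 CPM against 60.0, 37.2 and 57.5 CPM (5.28, standard error 0.28, adjusted p = 0.00014). Fast Tnnc2 stood at 0.304, 0.364 and 0.519 CPM against 26.9, 15.9 and 22.8 CPM (5.77, standard error 0.31, adjusted p = 0.00014). Tnnc2 rests on the strand, since its 926 reverse-stranded reads became 1 read in the counts made without strand. Tnni1 and Tnnt2 both lie on chromosome 1, with 25364 bases between them, and Tnni2 and Tnnt3 on chromosome 7, with 54425 bases between them.

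Tropomyosin, nebulin and leiomodin complete the thin filament. Tpm2, beta-tropomyosin, stood at 114, 113.5 and 126 CPM in the anterior and at 225, 143 and 203 CPM in the posterior libraries (log2 fold change 0.69, standard error 0.17, adjusted p = 0.0497). It had the highest anterior level of the class, per length as well, and the smallest change, and its call did not hold in 7 of the 12 alternatives. Neb, nebulin, which runs along the thin filament, stood at 0.759, 0.436 and 0.692 CPM against 22.4, 32.4 and 61.4 CPM (5.94, standard error 0.50, adjusted p = 0.000655), and at 3.90 in the counts made without strand. Neb was highest in posterior replicate 3 and lowest in posterior replicate 1. Lmod3, a leiomodin that nucleates thin filaments, had 1, 2 and 0 counts in the anterior libraries and 6.36, 5.49 and 10.5 CPM in the posterior ones, a ratio of summed counts of 96.4 (32.7 to 470.1).

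Titin and the M-band proteins, which hold the thick filaments in register, were called higher in 3 of 4 genes. Of the 4, 1 had under 10 counts in every anterior library. Ttn, the giant spring between Z-disc and M-band, stood at 0.304, 0.800 and 1.21 CPM in the anterior and at 46.3, 67.3 and 144 CPM in the posterior replicates (log2 fold change 6.81, standard error 0.61, adjusted p = 0.000879). As with Neb, the posterior libraries differed widely, with replicate 3 the highest and replicate 1 the lowest, and none reached down to the anterior level. Myom2, a myomesin of fast fibres, stood at 0.228, 1.09 and 0.692 CPM against 12.1, 8.24 and 18.9 CPM (4.26, standard error 0.50, adjusted p = 0.00291), and Myom3 had 3, 6 and 2 counts in the anterior libraries and 6.96, 5.20 and 11.5 CPM in the posterior ones (4.75, standard error 0.46, adjusted p = 0.00124). Myom1, the myomesin found in all striated muscle, stood at 14.6, 11.6 and 12.3 CPM in the anterior and at 18.6, 13.7 and 34.8 CPM in the posterior libraries. Its posterior replicate 2 lay within the anterior range, and it was not called (0.80, standard error 0.33, adjusted p = 0.181) nor was it under any of the 12 alternatives.

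Of the 12 Z-disc and anchorage genes, 9 rose toward the posterior palate, and the 3 that were not were Actn3, Pdlim3 and Nrap. Actn2, the alpha-actinin that cross-links thin filaments at the Z-disc, stood at 0.379, 0.291 and 0.865 CPM in the anterior and at 52.3, 32.7 and 74.2 CPM in the posterior libraries (log2 fold change 6.71, standard error 0.46, adjusted p = 0.000323). Its fast-fibre relative Actn3 stood at 8.88, 9.52 and 5.62 CPM against 7.04, 9.39 and 10.4 CPM, with overlapping regions (0.15, standard error 0.24, adjusted p = 0.707). The sign of the Actn3 difference turned in 2 of the 12 alternatives. Des, desmin, the intermediate filament that ties Z-discs together, stood at 4.02, 3.71 and 2.77 CPM against 52.3, 38.2 and 44.6 CPM (3.68, standard error 0.19, adjusted p = 0.00014). Synpo2l, an actin-binding protein of the Z-disc, stood at 0.683, 0.800 and 0.519 CPM against 25.7, 18.8 and 27.7 CPM (5.14, standard error 0.25, adjusted p = 0.00014). Regions were widely separated for desmin and Synpo2l.

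Flnc, filamin C, which links actin to the Z-disc and the membrane, had the highest anterior level of the class, per length as well, at 99.3, 99.7 and 103.5 CPM, and stood at 178, 217 and 288 CPM in the posterior libraries (log2 fold change 1.18, standard error 0.17, adjusted p = 0.00638). The regions did not overlap, though the fold was among the smallest of the calls. Csrp3 (muscle LIM protein), Ldb3 (an adaptor of alpha-actinin), Myoz2 (a calcineurin-binding Z-disc protein) and Xirp1 (an actin-binding repeat protein) had at most 4 counts in any anterior library and between 1.30 and 12.3 CPM in the posterior libraries. Their log2 fold changes lay between 5.20 and 5.77, with adjusted p from 0.000965 to 0.00463. Ratios of summed counts were 58.2 (24.7 to 180.5) for Csrp3, 44.6 (21.4 to 111.8) for Ldb3, 39.0 (17.7 to 107.3) for Myoz2 and 44.7 (12.0 to 374) for Xirp1. Tcap, telethonin, which caps titin at the Z-disc, had 4, 3 and 2 counts in the anterior and stood at 2.55, 1.16 and 4.11 CPM in the posterior libraries (3.43, standard error 0.59, adjusted p = 0.0134), and its call was lost without any one anterior replicate (adjusted p from 0.0566 to 0.0723).

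Pdlim3, a PDZ and LIM protein that binds alpha-actinin, stood at 1.67, 3.13 and 1.13 CPM in the anterior and at 6.36, 3.54 and 7.34 CPM in the posterior libraries. Nrap, a scaffold of early myofibrils, stood at 0.455, 0.291 and 1.13 CPM against 2.77, 1.30 and 2.81 CPM. In both, the regions did not overlap but posterior replicate 2 was close to the highest anterior library. They missed the threshold (Pdlim3: log2 fold change 1.53, standard error 0.42, adjusted p = 0.0765; Nrap: 1.90, standard error 0.53, adjusted p = 0.0772). DESeq2 called both, with adjusted p of 0.0119 for Pdlim3 and 0.0306 for Nrap.

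The genes of assembly and turnover ranged from 0.54 to 8.03 in log2 fold change, with 6 of the 7 tested called. Of the 7, 4 had under 10 counts in every anterior library and entered the test through their posterior counts alone. Smyd1, a methyltransferase that myosin assembly into thick filaments requires, had 0, 1 and 2 counts in the anterior libraries and stood at 21.1, 17.8 and 29.6 CPM in the posterior ones (log2 fold change 8.03, standard error 0.47, adjusted p = 0.000166), a ratio of summed counts of 294.8 (100.6 to 1432). The fitted value rests on 3 anterior counts, and with the anterior libraries set at 3 counts each the log2 difference was 6.62. DESeq2 gave Smyd1 a standard error of 0.88. Unc45b, the chaperone that folds myosin in striated muscle, stood at 2.66, 2.47 and 2.77 CPM against 10.3, 10.55 and 13.8 CPM (2.13, standard error 0.19, adjusted p = 0.000897). Smyd1 was thus near 0 in the anterior palate while Unc45b was not, and both were separated between regions. Klhl41 stood at 0.835, 0.291 and 0.519 CPM against 18.6, 16.6 and 26.8 CPM (5.22, standard error 0.35, adjusted p = 0.000304). Its relative Klhl40, which stabilizes Lmod3 and nebulin, was called as well (3.77, standard error 0.46, adjusted p = 0.00352).

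Trim55 and Trim63 encode MURF ubiquitin ligases of the sarcomere. Trim55 had 2, 1 and 4 counts in the anterior libraries and 6.66, 6.00 and 10.2 CPM in the posterior ones (5.31, standard error 0.46, adjusted p = 0.000744). Trim63 had 4, 6 and 4 counts against 1.87, 1.37 and 2.61 CPM (2.40, standard error 0.38, adjusted p = 0.00981), and lost its call without anterior replicate 1 (adjusted p = 0.0573). Cryab, the small heat shock protein that protects desmin and titin, stood at 9.03, 7.56 and 6.75 CPM in the anterior and at 11.5, 9.90 and 12.5 CPM in the posterior libraries, separated by region but not called (0.54, standard error 0.17, adjusted p = 0.11). Ankrd1, a stress-induced titin partner, had 1, 0 and 1 counts against 10, 8 and 26, a ratio of 20.3 (5.29 to 172.6), and was under the filter. Without it Ankrd1 was called higher in the posterior palate (4.10, adjusted p = 0.00323).

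**Figure D2:**
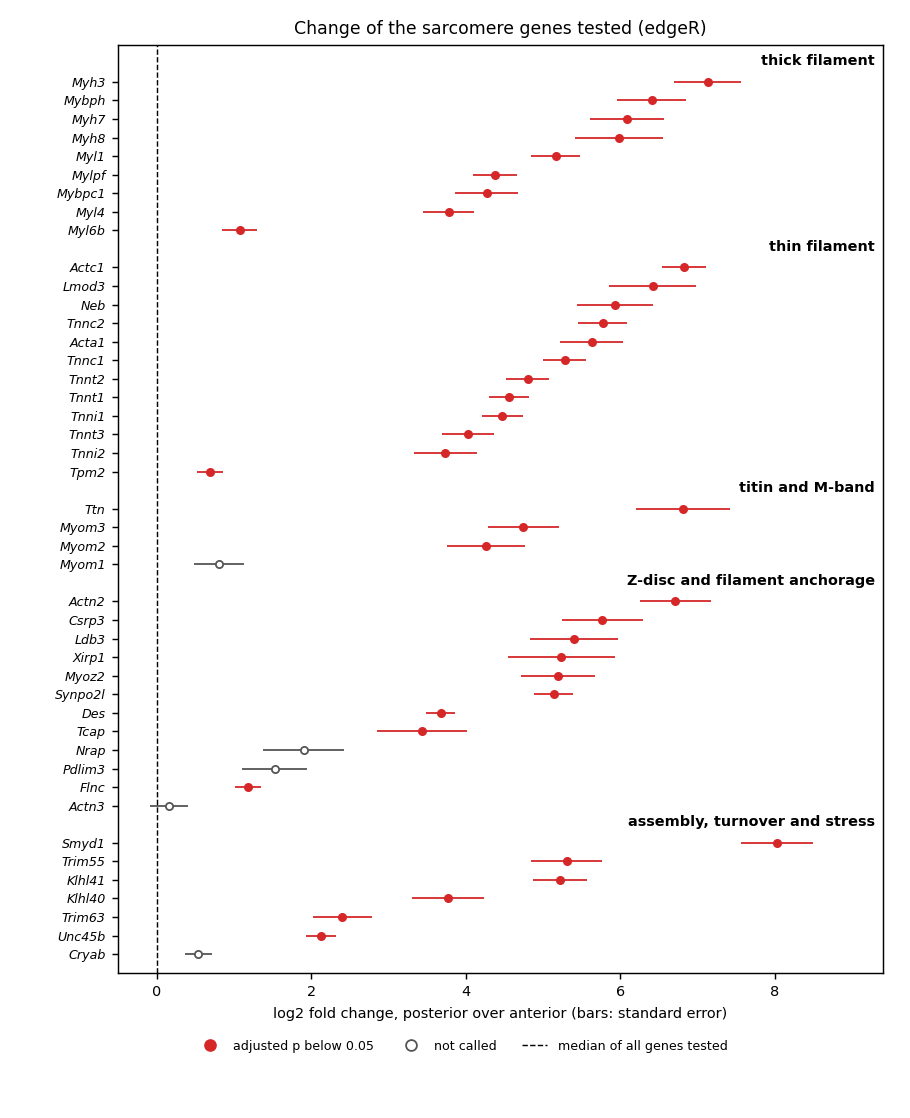
Fitted log2 fold change, posterior over anterior, of the 44 genes tested, with genes grouped by their place in the sarcomere. Bars are standard errors derived from the F statistic, which can be too short for genes with few anterior counts. Filled red points mark the 39 genes with an adjusted p below 0.05, open points the 5 genes above it, and the dashed line the median of all genes tested (-0.004). Smyd1, fitted on 3 anterior counts, lies at 8.03 and Actn3 lowest at 0.15.

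The genes with a sizeable anterior level were few. Only Tpm2, Flnc, Myom1, Actn3, Cryab and Myl6b averaged at least 5 CPM in the anterior palate, and these 6 had log2 fold changes from 0.15 to 1.18, the smallest of the 44. Of the 49 genes, 18 averaged at least 1 CPM in the anterior palate and 9 had at most 3 counts in every anterior library. Of the genes tested, 21 had a log2 fold change of at least 5 and 34 of at least 3.

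Isoforms were compared within each library as shares of a protein family, per kilobase of transcript, so that the levels of different genes are on 1 scale. Among the sarcomeric myosin heavy chains of the posterior libraries, Myh3 took 74.7%, 76.7% and 78.1% of reads per kilobase, or 76.5% ± 1.72 (SD, n = 3). Myh8 took 11.7% ± 1.33 and Myh7 11.2% ± 1.61, which overlapped, and Myh1 took 0.562% ± 0.532. Embryonic myosin was thus the most abundant heavy chain transcript in every posterior library, with perinatal and slow myosin behind it in no fixed order. In the anterior libraries Myh3 took 52.7% to 65.8%, from only 23 to 48 reads on the 5 genes.

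Actc1 took 67.6%, 75.9% and 68.9% of the striated alpha-actin reads per kilobase in the posterior replicates, and Acta1 the rest. In the anterior libraries the Actc1 share was 41.7%, 60.8% and 47.8%, from 38 to 56 reads, below all posterior values. Essential light chains also differed in make-up between regions. Myl1 took 58.6% ± 1.82 in the posterior against 17.0% ± 4.09 in the anterior libraries (n = 3 each), Myl4 29.0% ± 2.17 against 22.7% ± 3.05, and Myl6b 11.4% ± 1.59 against 56.8% ± 3.32. The Myl6b share was over 53.0% in every anterior and under 12.4% in every posterior library. Its level itself was called higher in the posterior palate (log2 fold change 1.07), less so than Myl1 (5.16) and Myl4 (3.78). No test of these shares was run, and an exact permutation test over 3 against 3 libraries would not go below a two-sided p of 0.1.

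Slow troponins exceeded fast ones per kilobase in every library. In the posterior libraries, Tnnt1 took 61.3% ± 0.228 of troponin T, Tnnt2 23.0% ± 1.13 and Tnnt3 15.7% ± 0.975. Tnni1 took 76.7% ± 2.26 of troponin I, and Tnnc1 69.6% ± 1.30 of troponin C. These shares varied little among the posterior libraries although the levels themselves did. In the anterior libraries Tnni1 took 53.0% to 77.8% and Tnnc1 61.8% to 82.9%, from at most 43 and 26 reads, so that anterior and posterior shares overlapped for both.

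Fast parts were not lower throughout. Mylpf took 99.7% ± 0.175 of the regulatory light chains in the posterior libraries and slow Myl2 0.344% ± 0.175. Alpha-actinin turned over between regions, with Actn2 at 84.0% ± 6.11 in the posterior and Actn3 at 93.5% ± 5.49 in the anterior libraries. Of the pair, Actn2 rose between regions and Actn3 was not called. Among the myomesins, Myom1 took 49.3% ± 2.09, Myom2 32.8% ± 1.65 and Myom3 18.0% ± 0.755 in the posterior libraries, and Myom1 took 92.4% ± 4.65 in the anterior ones.

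**Figure D3:**
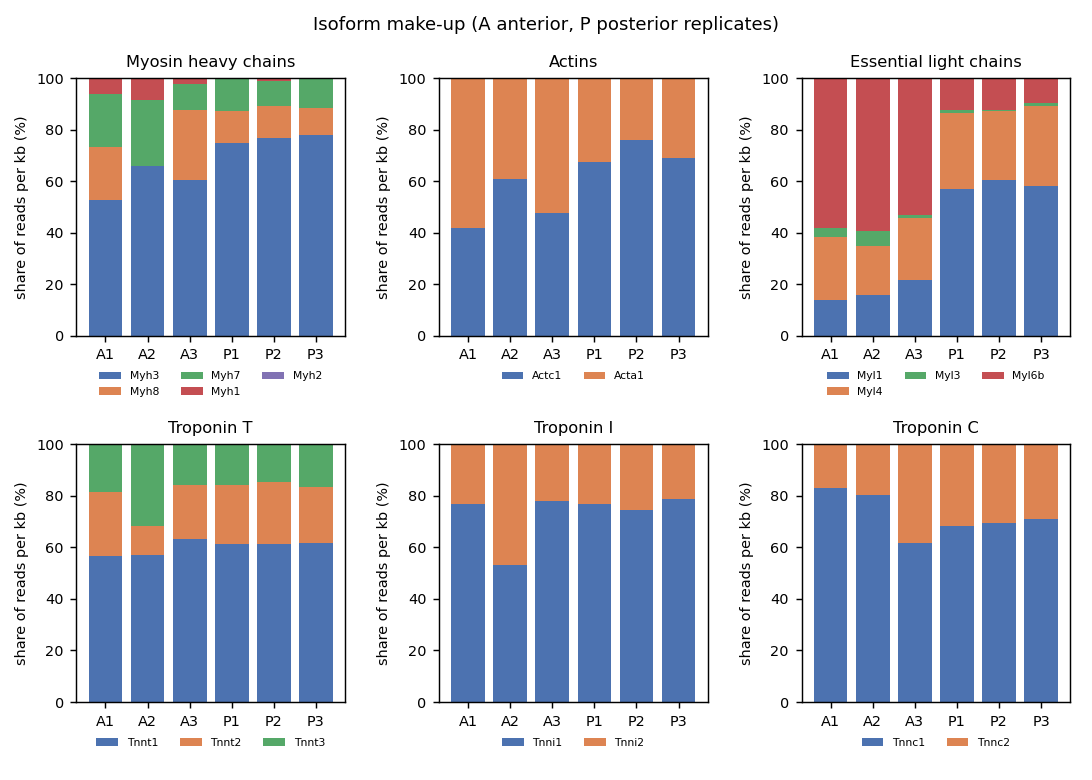
Make-up of 6 sarcomere protein families in the anterior (A1 to A3) and posterior (P1 to P3) libraries, each bar adding up to 100% of the reads per kilobase of transcript counted on that family. Myh3 is the tallest segment of the myosin heavy chains in all 6 bars, at 74.7% to 78.1% in the posterior ones. The largest share of the essential light chains is that of Myl6b in the anterior and of Myl1 in the posterior libraries, though the level of Myl6b did not fall. Anterior bars rest on few reads, 23 to 48 for the heavy chains.

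Across families, the order of levels per length in the posterior palate, given as RPKM, that is CPM per kilobase of transcript, started with Actc1 at 163, 109.8 and 169, Mylpf at 139.7, 80.5 and 159 and Tpm2 at 107, 68.2 and 96.9. Myl1 followed at 91.5, 53.5 and 90.9, Tnnc1 at 83.3, 51.6 and 79.7, Acta1 at 78.0, 34.9 and 76.1 and Tnnt1 at 65.6, 46.7 and 70.3. The ranges of neighbours in this order overlapped across the 3 libraries, but within each library the order held for every neighbouring pair except Acta1 and Tnnt1, which changed places in posterior replicate 2. Myh3 stood at 30.7, 26.9 and 59.7 RPKM. Ttn, whose transcript is the longest, had a posterior mean of 0.856 RPKM and Neb one of 1.72 RPKM, so that genes with 86.0 and 38.8 CPM on average were low per length.

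The posterior libraries also differed among themselves. Posterior replicate 2 was the lowest of them for 42 of the 49 genes, and posterior replicate 3 the highest for 35. Over the 30 genes that averaged at least 10 CPM in the posterior palate, the median log2 ratio was -0.50 for replicate 2 over 1 and 0.16 for replicate 3 over 1. Across these genes the log2 ratio rose with transcript length, with Spearman's rho of 0.70 for replicate 2 over 1 and of 0.78 for replicate 3 over 1, against 0.31 for replicate 3 over 2. Over all 10421 genes at that level, rho was 0.61, 0.60 and 0.15, so the relation with length was not limited to muscle genes. The points share their libraries and are not independent.

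Ttn and Neb, the longest genes of the list, lay at the upper end. Ttn had log2 ratios of 0.54 for replicate 2 over 1 and 1.64 for replicate 3 over 1, and Neb had 0.54 and 1.46. Acta1, a short gene, had -1.16 and -0.04. Genes of middling length varied, and Myh7 had -0.65 for replicate 2 over 1 whereas the shorter Tnnt2 had -0.41. The standard error of the log2 fold change was 0.61 for Ttn and 0.28 for Actc1, and the cause of this was not tested. With the term for posterior replicates 2 and 3, which leaves posterior replicate 1 alone against the anterior libraries, the log2 fold change was 5.92 for Ttn instead of 6.81, and 5.14 for Neb instead of 5.94. In posterior replicate 1, the library that resembled the anterior ones in its share of reads mapping to several places, Ttn and Neb were already at 46.3 and 22.4 CPM, above the 1.21 and 0.759 CPM of their highest anterior libraries.

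**Figure D4:**
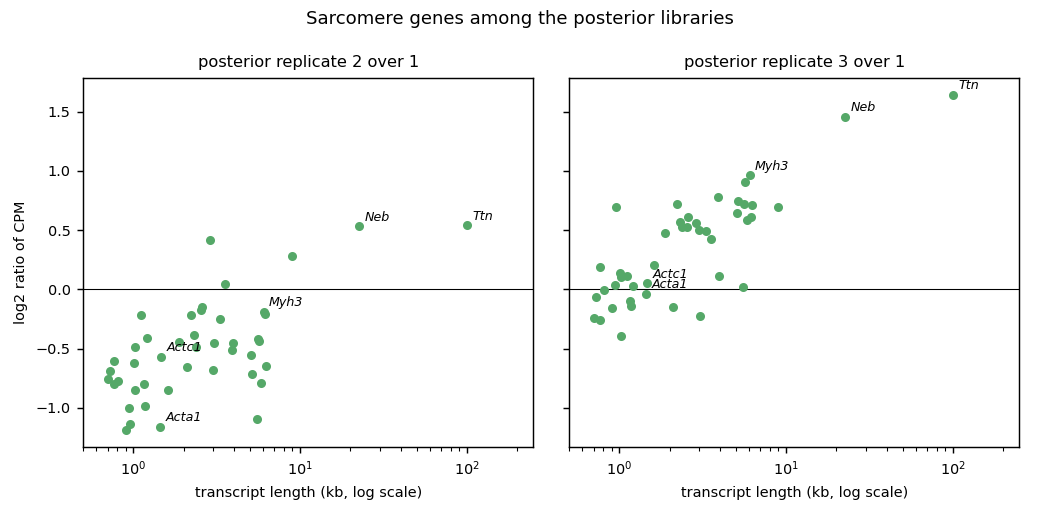
Ratio of CPM between posterior libraries, as log2, against transcript length in kilobases on a log axis, for the 44 genes tested. Replicate 2 over 1 is on the left and replicate 3 over 1 on the right, where Acta1, a short gene, lies under 0 in both panels and the long genes Neb and Ttn lie above 0 in both.

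Further sarcomere genes outside the list were also followed. Of 32 such genes, 23 were tested, 9 were called higher in the posterior palate and 0 lower, where 4.87% and 2.59% of all genes tested were. Of the 23, 4 (Trim54, Myot, Myh7b and Smpx) had under 10 counts in every anterior library. They entered the test through their posterior counts alone and were among the 9 called. The median log2 fold change of the 23 was 0.25. Tmod1, a tropomodulin that caps thin filaments, stood at 1.06, 1.02 and 1.04 CPM against 7.26, 5.13 and 11.3 CPM (log2 fold change 2.92, adjusted p = 0.00293), and Nexn, a Z-disc actin-binding protein, at 7.13, 6.33 and 8.65 CPM against 27.3, 22.3 and 28.7 CPM (1.83, adjusted p = 0.000997). Myot, myotilin of the Z-disc, was called as well (adjusted p = 0.00219), with 2, 0 and 0 counts in the anterior libraries and a ratio of summed counts of 75.5 (20.6 to 629). Trim54, the third MURF ligase, was at 0 in all 3 anterior libraries and at 2.02, 1.08 and 1.99 CPM in the posterior ones, at least 7.27-fold higher against a floor of 3 counts per library. Myh7b, Myo18b, Smpx and Pdlim5 were also called, with log2 fold changes from 0.56 to 3.60. Tpm1 and Tpm3, tropomyosins that most cells use, were not called (-0.21 and -0.27), and nor was any of the 10 non-muscle actin and myosin genes in edgeR (-0.25 to 0.67), of which 2 had an unadjusted p below 0.05 and 1 was called by DESeq2.

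The myogenic regulators mark skeletal muscle precursors and young fibres. Of the 5 genes, 4 could be tested and were called higher in the posterior palate, as 4.87% of all genes tested were. These were Pax7 (2.74), Myf5 (4.41), Myod1 (7.54) and Myog (6.30), and Myf6 was under the filter. Myf5 and Myod1 had under 10 counts in every anterior library and so entered the test through their posterior counts alone. With the anterior libraries set at 3 counts each, the log2 difference was 3.67 for Myf5 and 6.49 for Myod1. Myod1 stood at 0.0759, 0.145 and 0.0865 CPM in the anterior and at 19.2, 22.2 and 21.6 CPM in the posterior libraries, and Myog at 0.455, 0.727 and 0.952 CPM against 44.8, 57.5 and 65.7 CPM. Summed over the 5 regulators, posterior replicate 1 was the lowest posterior library, at 72.2 CPM, whereas replicate 2 was the lowest for most genes of the list. Heart muscle markers added up to 1.67 to 2.86 CPM in the anterior and 2.46 to 3.74 CPM in the posterior libraries, with the atrial gene Bmp10 at 0 in all 6 libraries and Nppa at no more than 0.274 CPM. Of the 2 heart markers tested, 0 were called by edgeR or DESeq2 and 1 had an unadjusted p below 0.05. Myh6 stood at 1.42, 1.01 and 1.37 CPM and Tnni3 at 1.72, 0.867 and 1.58 CPM in the posterior libraries, and the part of heart muscle RNA in the levels of Actc1 and Tnnt2 was not tested.

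Smooth muscle markers rose in part. Acta2 stood at 49.3, 48.6 and 61.8 CPM in the anterior and at 148, 100.9 and 129 CPM in the posterior libraries (log2 fold change 1.24, adjusted p = 0.00475), and Tagln at 36.5, 29.95 and 31.9 CPM against 151, 101.9 and 57.7 CPM (1.66, adjusted p = 0.0205). The other 4 of the 6 markers tested were not called. Actg2, the enteric smooth muscle actin, lay the other way, at 5.69, 4.58 and 5.62 CPM against 3.44, 1.95 and 1.37 CPM (-1.23, adjusted p = 0.0752), and DESeq2 called 1 marker higher in the anterior palate. Myh11, the smooth muscle myosin, stood at 7.36, 6.04 and 7.79 CPM against 12.1, 7.88 and 10.2 CPM (0.51, adjusted p = 0.174). The 7 smooth muscle markers added up to 148 to 161 CPM in the anterior and 272 to 383 CPM in the posterior libraries, and their part in the changes of Tpm2, Flnc, Des and Myl6b, genes that smooth muscle also uses, was not tested. Some markers of other cell types also differed by region. Of the 3 cartilage genes tested, Col2a1 and Col9a1 rose toward the posterior palate (log2 fold changes 2.57 and 2.67) and Acan was not called (1.75, adjusted p = 0.0658). Of the 3 tendon genes, Mkx was higher (0.61), Tnmd lower (-2.33) and Scx not called (1.02, adjusted p = 0.182), and of the 3 mesenchymal genes, Twist1 and Pdgfra were higher (0.74 and 1.06) and Prrx1 lower (-1.34). No marker of osteoblasts, epithelium, endothelium, neurons, glia or myeloid cells was called by edgeR, although 7 of these 20 genes had an unadjusted p below 0.05, as 25.2% of all genes tested did, and DESeq2 called 5, against 8.56% and 4.07% of all genes in the 2 directions. The osteoblast markers Runx2, Sp7 and Ibsp were lower in every posterior than in every anterior library, an order that 13.4% of all genes tested showed (log2 fold changes -0.63 to -2.09), and DESeq2 called 2 of them. The posterior libraries were far apart for Ibsp, at 17.9, 143 and 1279 CPM against 2692, 2022 and 1403 CPM in the anterior libraries (standard error 1.20).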

How the data were processed

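Bulk RNA-seq of 6 palate libraries, grouped by the region in their labels, was analysed. Raw gene counts were deposited by the authors for each library, without strand and for each strand, in the layout STAR writes, whereas the labels name HISAT2, StringTie and DESeq2 1.30.1 with build mm10. The reverse-stranded counts were used, since they were 18.95 to 23.1 times those of the other strand. Symbols, positions and principal transcript lengths came from GENCODE M21 (GRCm38), which paired 52073 of 56691 identifiers with a symbol (35 with the same version), so positions may differ from those behind the counts. Reads mapping to several places, unmapped reads and reads outside genes (5.92% to 8.71%) were kept out of the library sizes and the tests.

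A gene was tested if 3 or more libraries held 10 or more counts of it, in edgeR 4.0.16 (R 4.3.3, limma 3.58.1; TMM, quasi-likelihood test, region as the only term, Benjamini-Hochberg adjustment, threshold 0.05). The fits were tested on simulated data. Ratios of summed counts carry exact 95% intervals, which cover counting error only. Per-library values were given for list genes with at least 10 CPM in the posterior palate, those not called, and the extremes of each class. The list members and the marker lists were chosen with earlier results of these data known. Alternatives were DESeq2 1.42.0, RLE normalization, no filter, counts without strand, the replicate number as a block, a term for posterior replicates 2 and 3, other length scales for the isoform shares, and leaving out each replicate. Libraries of 1 region differed beyond sampling noise (chi-square per gene 3.43 to 67.3). P-values weigh the difference between regions against the spread between these samples. The result of 1 gene of the comparison lists is not reported here.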

Additional observations from a re-analysis of the deposited data

How the results depend on the processing

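The number of list genes called higher in the posterior palate lay between 35 and 43 over the 12 alternatives, and their median log2 fold change between 4.47 and 4.95. Of the 44 genes tested, 35 were called in every alternative that tested them, and 43 had a fold change above 0 in all of them. The exception, Actn3, fell to -0.19 with the term for posterior replicates 2 and 3 and to -0.043 without anterior replicate 3, the lowest of its values with 1 replicate left out (highest 0.297). Over all genes, 1169 were called, 1978 by DESeq2 (637 higher in the anterior and 1341, or 8.56%, in the posterior palate) and 2162 without the low-count filter. Leaving out 1 replicate gave from 528 calls (without anterior replicate 2) to 7309 (without posterior replicate 1), and the list from 35 to 42. Over all genes tested, deviations of libraries with the same replicate number correlated at -0.0527, 0.045 and 0.0355. With 3 libraries per region these values cannot settle whether the numbers pair the regions, and the labels do not say. With the replicate block 829 genes were called, 37 of them on the list, with a median of 4.74. The Myh3 share was 81.7% in counts without strand and 75.7% to 77.4% under the other alternatives. Leaving out 1 replicate moved the log2 fold change of Smyd1 between 7.48 and 8.95, that of Ttn between 6.21 and 7.25 and that of Myh8 between 5.37 and 6.54. Without the low-count filter Myh1 and Ankrd1 were called and Myl2, Myl3 and Myh2 were not. Depth limits the anterior isoform shares, which rest on few reads. The cause of these shifts was not tested.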
